A study of Mus musculus with 2 samples.

Results

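Mir21a, Mir22, Mir221 and Mir222 are 4 miRNA genes linked to cell growth, described here in the facial prominences of the mouse embryo. They were chosen by name: the gene identifiers in the count files were matched to GENCODE symbols, and these 4 were kept of 1973 miRNA genes with a row. All 4 had a row and all 4 were detected. The tissue came from strain B6NCrl at embryonic day 14.5, with no treatment and no engineered allele named in the labels. Small RNA libraries (size range under 30) were made from 2 biological replicates, which form the only group. Each replicate is labelled as the face of a single pup, with separate collection days, yet the sex is given as a mixture of both, so whether a replicate was 1 embryo or a pool is not settled.

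A miRNA gene is transcribed as a longer RNA that folds into a hairpin, from which one or both arms are cut out as short mature RNAs. The mature RNA guides a silencing complex to messenger RNAs, chiefly by pairing of its seed, bases 2 to 8 from the 5′ end. miR-21 is abundant in growing and injured tissues and in many tumours, where it represses Pdcd4 and Sprouty genes, which restrain growth. miR-22 is known for roles in muscle growth and in differentiation. miR-221 and miR-222 repress Cdkn1b, the cell cycle inhibitor p27, and the receptor gene Kit.

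The mature arms are shown here because they set which reads can be told apart. Sequences are those of RefSeq on GRCm38.p6, the same mouse assembly as mm10, with the seed in capitals. All 4 genes matched an entry, and for Mir222 the entry holds the 3p arm. The arms known as the main products are miR-21a-5p, miR-22-3p, miR-221-3p and miR-222-3p.
miR-21a-5p: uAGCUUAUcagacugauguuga
miR-21a-3p: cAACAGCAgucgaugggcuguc
miR-22-3p: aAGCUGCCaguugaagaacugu
miR-22-5p: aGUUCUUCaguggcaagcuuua
miR-221-3p: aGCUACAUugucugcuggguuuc
miR-221-5p: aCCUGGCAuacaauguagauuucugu
miR-222-3p: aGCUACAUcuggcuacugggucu

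The 4 genes therefore carry 3 different main seeds. miR-221-3p and miR-222-3p share theirs, and they are identical over the first 8 bases. Counted from base 1 at the 5′ end of miR-221-3p, the first difference is U9C, and 11 of the 23 positions are identical when the arms are set side by side without gaps. In the table of mouse mature miRNAs, miR-1928 was the only other one with this seed, and its gene Mir1928 had 0 counts in both libraries. The seed of miR-22-3p was in no other entry.

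The seed of miR-21a-5p is also carried by miR-21c, the product of a near copy on chromosome 8, while the near copy miR-21b on chromosome 3 has a changed seed. Both are shown to compare them with miR-21a-5p.
miR-21b: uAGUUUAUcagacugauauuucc
miR-21c: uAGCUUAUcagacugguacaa
miR-21c matches miR-21a-5p over its first 15 bases, with A16G as the first difference, and miR-21b departs from it at C4U. Mir21b and Mir21c had 0 counts in each library. A count of 0 allows up to 3 counts, or 1.10 CPM (counts scaled to a miRNA total of 1000000 per library) in replicate 1 and 0.454 CPM in replicate 2, where the Mir21a counts were 19314 and 38459. Against that floor per library, Mir21a stood at least 6438-fold higher than either copy in replicate 1 and at least 12820-fold higher in replicate 2. None of the 4 genes shares a stretch of 20 bases with any of the other miRNA genes of GENCODE M21, so a read of a full arm has no exact match in another miRNA gene. Matches elsewhere in the genome were not examined.

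The hairpins of the X-linked pair are shown because the counts are taken over them, with the arms of the RefSeq table in capitals.
Mir221: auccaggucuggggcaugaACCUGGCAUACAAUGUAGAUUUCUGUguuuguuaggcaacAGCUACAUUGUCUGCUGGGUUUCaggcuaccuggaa
Mir222: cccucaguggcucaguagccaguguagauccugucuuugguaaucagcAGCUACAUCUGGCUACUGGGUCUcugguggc
The deposited counts are per gene, so the arms of one hairpin cannot be separated in them.

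The genes lie at 3 loci of assembly mm10. Mir21a (ENSMUSG00000065455.1) is at chr11:86584067-86584158, minus strand, in an exon of the protein-coding gene Vmp1, beyond its coding sequence and inside its 3′ UTR. Mir22 (ENSMUSG00000065529.1) is at chr11:75463716-75463810, plus strand. It lies in an exon of both annotated transcripts of the noncoding host gene Mir22hg, and in an exon of 1 noncoding transcript of Tlcd2, all on the same strand. Mir221 (ENSMUSG00000065422.1) is at chrX:19146294-19146388 and Mir222 (ENSMUSG00000065471.1) at chrX:19146893-19146971, both on the minus strand. They are 504 bp apart, lie inside no other annotated gene, and had no other annotated gene within 10 kb.

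Replicate 1 held 2719153 gene-strand miRNA counts and replicate 2 held 6602050, and 717 genes had at least 1 count. Markers of the labelled tissue were present. The cartilage list summed to 43454 CPM in replicate 1 and 41703 CPM in replicate 2, the epithelial list to 52450 and 67435 CPM, and the mesenchymal list to 17643 and 12119 CPM. The smooth muscle list summed to 18130 and 16278 CPM and the skeletal muscle list to 11714 and 13349 CPM. Markers of liver, heart and neural tissue summed to less. The liver list stood at 147 and 134 CPM, the heart list at 469 and 380 CPM and the neural list at 1132 and 890 CPM. In the neural list Mir137 stood at 740 and 522 CPM, while 4 of its 8 genes with a row (the 3 copies of Mir124a, and Mir9-2) were at 0. In the layout of these counts reads with several positions are left out, so a 0 of a gene with copies does not show that its RNA was absent.

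Mir22 and Mir21a were abundant in the facial prominences, and Mir221 and Mir222 were not. Together the 4 genes held 1.51% of the miRNA counts in replicate 1 and 1.69% in replicate 2 (1.60% ± 0.13, SD, n = 2). Mir22 and Mir21a made up 97.8% ± 0.20 (SD, n = 2) of that. The X-linked pair summed to 360.04 CPM in replicate 1 and 354 CPM in replicate 2. Adapter ligation favours some miRNAs over others, which limits comparisons of level between genes, and a read covers most of an arm, so counts were not divided by hairpin length (79 to 95 bases).

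Mir22 had 20872 counts in replicate 1 and 70922 in replicate 2. This is 7676 CPM (exact 95% binomial interval 7573 to 7780) and 10742 CPM (10664 to 10821), a mean of 9209 ± 2168 CPM (SD, n = 2). It was the highest of the 4 genes in both libraries, at rank 31 and rank 23 of all miRNA genes. The intervals cover counting error only, and the libraries lay far outside each other's.

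Mir21a had 19314 counts in replicate 1 and 38459 in replicate 2. It stood at 7103 CPM (7003 to 7203) and 5825 CPM (5767 to 5884), a mean of 6464 ± 903 CPM (SD, n = 2), at rank 32 and rank 38. Here replicate 1 was the higher library. The ranges of Mir21a (5825 to 7103 CPM) and Mir22 (7676 to 10742 CPM) did not overlap, but in replicate 1 the genes were only 1.08-fold apart.

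Mir221 had 656 and 1634 counts, which is 241 CPM (223 to 260.4) in replicate 1 and 247 CPM (236 to 259.8) in replicate 2. Its mean was 244 ± 4.42 CPM (SD, n = 2), at rank 161 and rank 155. Mir222 had 323 and 705 counts, which is 119 CPM (106 to 132) and 107 CPM (99.0 to 115), a mean of 113 ± 8.49 CPM (SD, n = 2), at rank 196 and rank 197. For each of these genes the counting intervals of the libraries overlap. Both genes were nonetheless well above the floor, and 77.7% and 72.7% of detected genes had a lower mean level than Mir221 and Mir222.

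**Figure D1:**
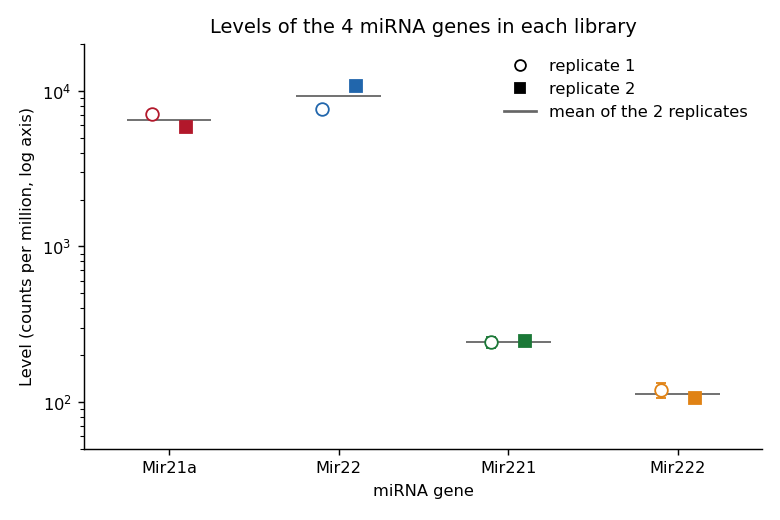
Level of each gene in CPM (log axis) in replicate 1 (open circles) and replicate 2 (filled squares), with exact 95% binomial intervals for counting error (mostly smaller than the symbols) and the mean of both as a line. Mir22 and Mir21a lie between 5825 and 10742 CPM, Mir221 and Mir222 between 107 and 247 CPM.

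Reads at these loci lay on the strand of the gene. On the opposite strand Mir21a had 0 counts in replicate 1 and 1 in replicate 2, and the other 3 genes had 0 in both.

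The order of the 4 genes was Mir22, Mir21a, Mir221, Mir222 in each library. In the order of all genes by mean level, Mir22 was number 28, Mir21a 33, Mir221 160 and Mir222 196. Between 8 and 12 other genes had a range over the 2 libraries that overlapped that of a given member: 8 for Mir22, 9 for Mir21a, 8 for Mir221 and 12 for Mir222. Within those sets the order is not separated by the spread between replicates.

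The next gene above Mir22 was Mirlet7d, a let-7 family gene (9501 and 9870 CPM), and the next below was Mir381 of the imprinted Dlk1-Dio3 locus (9725 and 8141 CPM). Around Mir21a these were Mir183, a sensory organ miRNA (6085 and 7065 CPM), and Mir351 (5795 and 7094 CPM). Mir221 lay between Mir495 (266 and 237 CPM) and Mir208b, which is encoded in a muscle myosin gene (246 and 242 CPM). Mir222 lay between Mir412 (132 and 108 CPM) and Mir363 (124 and 96.6 CPM). All of these ranges overlapped that of the member beside them.

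Likeness was also taken over both libraries at once, as the distance in log2(CPM + 1). The 2 nearest genes were Mirlet7d (0.33) and Mir182 (0.39) for Mir22, and Mir10b (0.22) and Mir541 (0.26) for Mir21a. They were Mir208b (0.045) and Mir574 (0.11) for Mir221, and Mir138-2 (0.12) and Mir3102 (0.13) for Mir222. With 2 libraries such likeness says only that levels were alike.

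**Figure D2:**
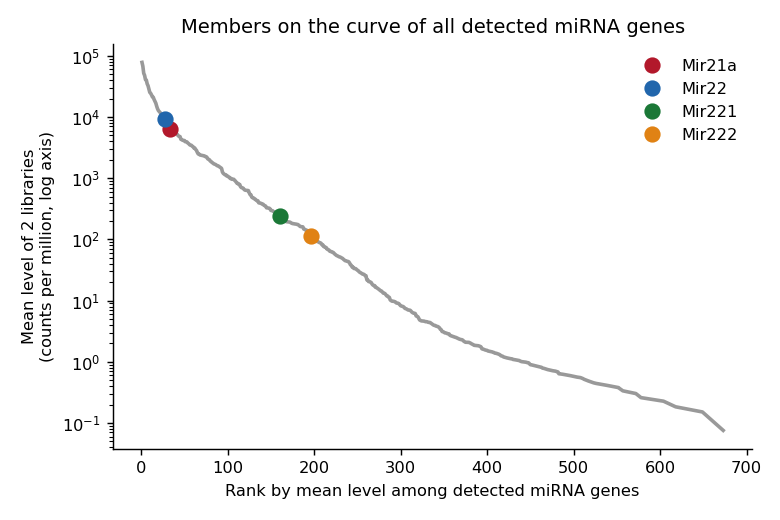
Mean level in CPM (log axis) against rank for all detected miRNA genes (grey line), with the 4 genes as points. Mir22 and Mir21a sit at ranks 28 and 33 on the steep upper part, Mir221 and Mir222 at ranks 160 and 196.

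The 2 libraries are replicates of one group, so a comparison between them describes spread between libraries and not an effect of a condition. It was made with an exact two-sided binomial test on the counts of each gene, scaled by TMM effective library sizes (edgeR), over the 372 genes with a mean of at least 10 counts and with Benjamini-Hochberg adjustment over all of them. The test knows only counting error. It called 52.2% of all tested genes, 27.4% as higher and 24.7% as lower in replicate 2, and 156 of the 202 genes whose mean was 100 CPM or more (77.2%). Of the 4 genes 3 were called, which is close to that share of well-counted genes.

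Mir22 was higher in replicate 2. Its log2 ratio, replicate 2 over replicate 1, was 0.61 with a counting SE of 0.011, a 1.53-fold difference after TMM scaling and 1.40-fold in CPM, with an adjusted p of the exact binomial test too small for the software to represent. A total of 49 of the 372 tested genes had a larger absolute ratio, and 11 of the 202 genes with at least 100 CPM. Its coefficient of variation in CPM was 23.5%, beside a biological coefficient of variation of 20.9% over all tested genes. The first was scaled to total counts and the second to TMM sizes, under which the Mir22 difference was larger, so they are not on one scale.

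Mir21a was lower in replicate 2, at a log2 ratio of -0.16, where counting alone gives an SE of 0.013 (exact binomial test, adjusted p = 2.68e-35). This is 1.12-fold after TMM scaling and 1.22-fold in CPM. A larger absolute ratio was found for 246 of the 372 tested genes, and the median absolute ratio of all tested genes was 0.24. The difference was thus well beyond counting error and, with TMM scaling, smaller than that of most genes. With total counts its log2 ratio was larger in size, at -0.29, and how many genes exceeded it was not counted.

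Mir221 had a log2 ratio of 0.16 and an SE from counting of 0.067 (exact binomial test, adjusted p = 0.0298). With total counts in place of TMM its ratio was 0.037 (adjusted p = 0.701 in the same exact test), so the call rests on the scaling. Mir222 did not pass the test, at a log2 ratio of -0.028 and an SE from counting of 0.097 (exact binomial test, adjusted p = 0.890). With total counts Mir222 stood at -0.15 (adjusted p = 0.184, exact binomial test). TMM scaling raises every log2 ratio by about 0.13 over total counts, with which 53.0% of tested genes were called, 17.2% as higher and 35.8% as lower in replicate 2, and of the 4 genes Mir22 and Mir21a only.

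**Figure D3:**
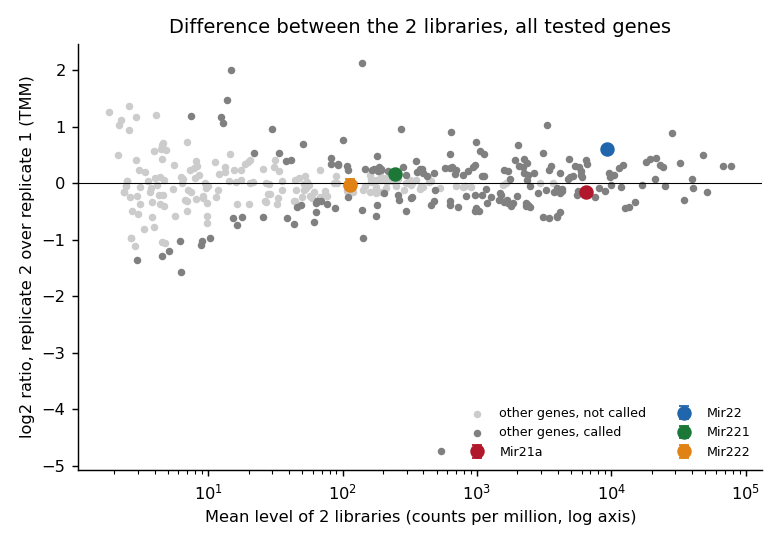
log2 ratio of replicate 2 over replicate 1 (TMM scaling) against mean level in CPM (log axis) for the 372 tested genes, called genes in dark grey and others in light grey, with the 4 genes in colour and counting SE as bars. Mir22 lies near the upper edge of genes at its level (0.61), Mir21a, Mir221 and Mir222 lie inside the bulk (-0.16, 0.16 and -0.028).

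Ratios between genes within one library need no scaling. They were compared between the libraries by Fisher's exact test for the 6 pairs of the 4 genes, with adjustment over the 6, a comparison chosen after the data had been seen. Mir22 counts were 1.08 times those of Mir21a in replicate 1 and 1.84 times in replicate 2. As a share, Mir21a was 48.1% of the pair in replicate 1 (exact 95% binomial interval 47.6 to 48.6) and 35.2% in replicate 2 (34.9 to 35.4). This was the largest change among the 6 pairs, 0.77 on the log2 scale with a counting SE of 0.017, and its adjusted p in Fisher's exact test was too small to represent.

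The X-linked pair kept a nearer ratio than Mir21a and Mir22, but not the nearest of the 6 pairs. The ratio of Mir21a to Mir222, which lie on different chromosomes, changed by -0.13 on the log2 scale (counting SE 0.098). Mir221 was 67.0% of Mir221 plus Mir222 in replicate 1 (64.0 to 69.9) and 69.9% in replicate 2 (68.0 to 71.7), a mean of 68.4% ± 2.02 (SD, n = 2). Mir221 counts were 2.03 and 2.32 times those of Mir222. The change of 0.19 on the log2 scale had a counting SE of 0.12 and did not pass Fisher's exact test (p = 0.109, adjusted p = 0.130). At 323 counts of Mir222 in replicate 1, a change of this size or smaller could not be told from counting error.

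Across the loci, the ratio of Mir21a to Mir221 fell from 29.4 in replicate 1 to 23.5 in replicate 2 (Fisher's exact test, adjusted p = 2.4e-06). The ratio of Mir22 to Mir221 was 31.8 and 43.4 (adjusted p = 2.69e-10 in the exact test), and that of Mir22 to Mir222 was 64.6 and 100.6 (adjusted p = 4.59e-10, exact test). The ratio of Mir21a to Mir222 was 59.8 and 54.6 and did not pass (Fisher's exact test, adjusted p = 0.182). All 3 pairs with Mir22 therefore changed, in each case with more Mir22 in replicate 2.

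**Figure D4:**
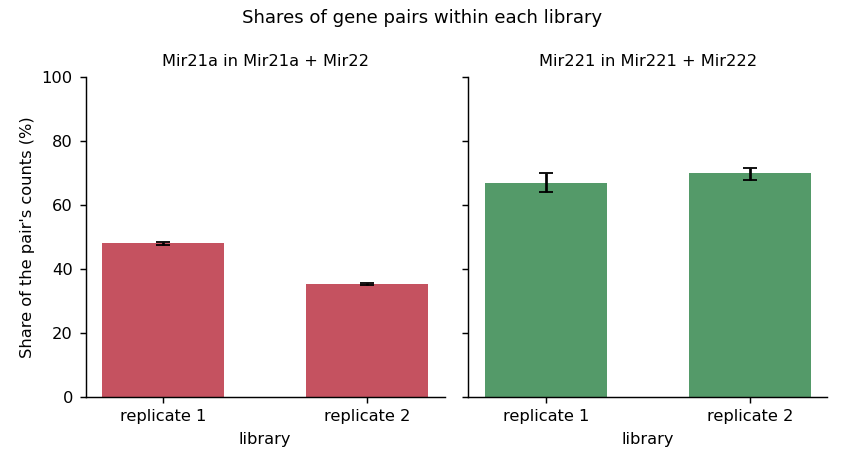
Share of Mir21a in the counts of Mir21a plus Mir22 (left) and of Mir221 in Mir221 plus Mir222 (right), in percent, for each library, with exact 95% binomial intervals for counting error. The Mir21a share is 48.1% in replicate 1 and 35.2% in replicate 2, while the Mir221 shares are 67.0% and 69.9% with overlapping intervals.

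The 4 genes were set beside 2 lists of other miRNA genes linked to growth. The first holds 12 genes usually described as growth-promoting, mostly of the Mir17 cluster and its paralogue around Mir93, with Mir130b, Mir155 of activated leukocytes and Mir210 of hypoxic cells. The second holds 12 genes usually described as growth-restraining, such as Mirlet7i, the p53-linked Mir34 genes and the Mir15a and Mir16-1 pair, of which 11 had a row and Mir497 had none. By mean level Mir22 was number 5 and Mir21a number 6 of these 27 genes together, behind Mirlet7i, Mir126a, Mir143 and Mir17. Mir221 was number 20 and Mir222 number 23. Reads at several positions are not counted, which can lower genes with copies, such as Mir16-1 and Mir19b-1, in this order.

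Of the 12 growth-promoting genes 7 were lower in replicate 2, 0 higher and 5 did not pass, with a median log2 ratio of -0.38 against -0.0022 over all tested genes, of which 24.7% were called lower. With total counts 9 were lower, beside 35.8% of all tested genes. Mir17 stood at 15154 and 10275 CPM (log2 ratio -0.43) and Mir106b at 4917 and 2975 CPM (-0.60). Of the 11 growth-restraining genes 8 were higher, Mir143 was lower and 2 did not pass, with a median of 0.28, beside 27.4% of all tested genes called higher. With total counts 6 were higher and 2 lower, beside 17.2% called higher over all. Mir195a stood at 890 and 1213 CPM (0.57), Mir126a, a miRNA of endothelium, at 41674 and 54165 CPM (0.50). Both lists were drawn up with earlier results of these libraries known, so their directions are a description.

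In that picture Mir22, commonly described as restraining growth in some tissues and promoting it in others, had a ratio (0.61) above every gene of both lists, the highest being Mir195a at 0.57. With counting SEs of 0.011 for Mir22 and 0.033 for Mir195a, their order is not clearly separated even by counting error. Mir21a (-0.16) lay close to a gene of each list. These were the growth-restraining Mir29a (-0.17, not called), at 196 and 160 CPM, and the growth-promoting Mir130b (-0.18), at 4580 and 3717 CPM. Mir221 (0.16) lay close to Mir15a (0.18), at 4052 and 4196 CPM.

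**Figure D5:**
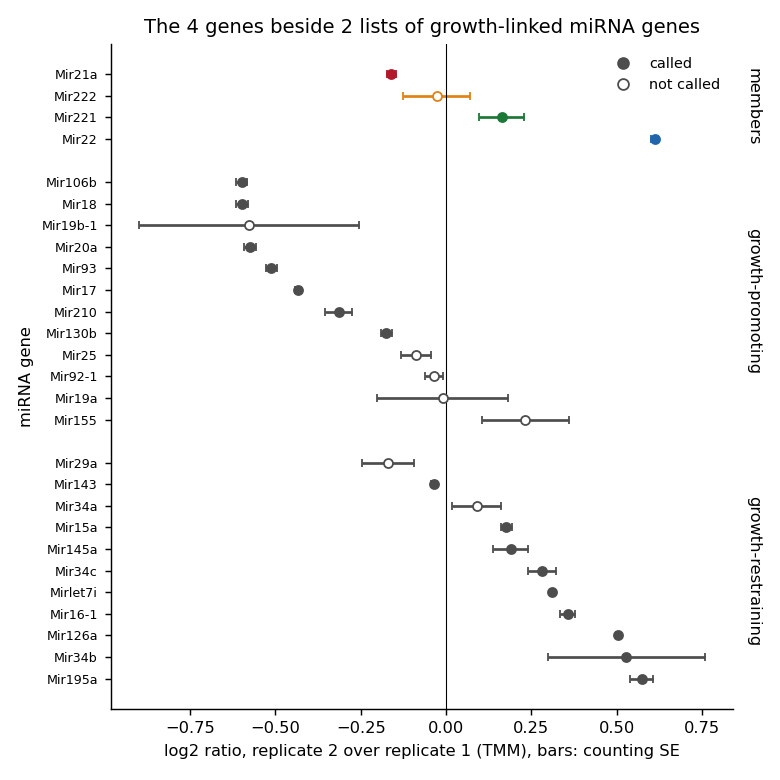
log2 ratio of replicate 2 over replicate 1 (TMM scaling) with counting SE for the 4 genes, 12 growth-promoting and 11 growth-restraining miRNA genes, filled where the exact binomial test called the gene. Mir22 lies at 0.61, the called growth-promoting genes between -0.60 and -0.18, and the called growth-restraining genes between -0.035 and 0.57.

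Markers of cell types also differed between the libraries, and their part in the differences of Mir22 and Mir21a was not tested. In bulk tissue, fewer cells of a type and less RNA per cell cannot be told apart. Endothelial Mir126a, the only gene of its list, was higher in replicate 2. Of the erythroid genes 2 of 3 were higher (sums of 1093 and 1406 CPM), and of the leukocyte genes found by symbol 1 of 3, Mir223 (sums of 633 and 807 CPM). The leukocyte genes Mir142 and Mir146a had no row under those symbols, and are left out of these sums. A gene named Mir146 stood at 94.5 and 87.1 CPM and was not called (log2 ratio 0.0076). Of the epithelial genes 5 of 7 were higher, while the epithelial Mir205 was lower (-0.088). Of the mesenchymal genes 2 of 4 were lower, Mir214 at -0.42 and Mir199b at -0.50, and 0 were higher. Over all tested genes 27.4% were called higher and 24.7% lower. With total counts the higher genes were 1 of 3 erythroid, 1 of 3 leukocyte and 4 of 7 epithelial, with 2 epithelial and 3 mesenchymal genes lower. None of these 5 lists had a marker at 0. The day of collection coincides with the replicate and cannot be told apart from it.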

How the data were processed

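The authors' deposited files hold raw read counts per miRNA gene for each of 2 libraries, on assembly mm10 with GENCODE M4 per the metadata deposited beside the counts. The aligner, and how it was set, is not given in the sources used here. The columns have the layout of STAR gene counts, in which reads with several positions are not counted. The summary rows (reads unmapped, at several positions or outside miRNA genes) were 49.4% and 48.4% of reads and were left out.

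The gene-strand column was scaled to its gene total (CPM). Symbols and positions came from GENCODE M21, which named 1894 of 1973 identifiers. Libraries were compared by an exact binomial test (scipy 1.17.1) with TMM sizes estimated on the 372 tested genes (edgeR 4.0.16) at an adjusted threshold of 0.05, and log2 ratios used a prior of 0.5 counts. The test was checked on simulated counts, where it called more unchanged genes with TMM sizes than with the true sizes. No molecular identifiers are described, so PCR copies cannot be told from molecules. Named genes are the 4 members, 2 growth lists, the 2 genes nearest to each member in log2(CPM + 1), genes sharing a main seed and miRNA genes within 10 kb. Other genes, such as the next in order of level, were picked with their values in view. The members and lists were chosen with earlier results of these data known. Alternatives were another count column, other scalings (DESeq2 1.42.0 among them), totals, filters and priors, thinning, and leaving out each replicate.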

Additional observations from a re-analysis of the deposited data

How the results depend on the processing

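Of 76 alternative values, 64 kept their direction and call or moved by less than 1 SD, 0 reversed, 4 lost a call and 8 moved further. Part of the 64 was fixed in advance. With 2 replicates, leaving 1 out always moves a mean by less than 1 SD. The prior does not enter the test, so fits with another prior, counted among the 9 below, had to keep every call. The directions and calls of Mir22 and Mir21a and the lack of a call for Mir222 were the same in all 9 alternative fits, and these called 182 to 204 genes. The 4 lost calls were of Mir221: its log2 ratio was 0.037 with total counts (exact binomial test, adjusted p = 0.701), 0.073 thinned to equal depth (0.482), 0.16 with no filter on low counts (0.0565, more genes being tested), and 0.14 scaled on sums without the 20 highest genes (0.0765, an alternative added after the data were seen). Scaled to all reads, mean levels were 3156 CPM for Mir21a, 4508 for Mir22, 119 for Mir221 and 55.1 for Mir222, since gene-strand miRNA counts were 48.4% and 49.3% of reads. With the highest gene left out of the total, Mir221 stood at 265 and Mir222 at 122 CPM. Mir221 was 234 CPM with both strands and 237 CPM thinned, moves that pass its small SD of 4.42 CPM.

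With 1 replicate left out, the levels ranged from 5825 to 7103 CPM for Mir21a, 7676 to 10742 for Mir22, 241 to 247 for Mir221 and 107 to 119 for Mir222, and the Mir221 share from 67.0% to 69.9%. Higher calls were 102 of 194 with TMM and 64 of 197 with total counts. Depth limits Mir222 most, at 323 counts in replicate 1.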
